A study of Homo sapiens with 2 samples.

Results

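The exocytosis genes described here are 36 genes whose products bring vesicles to a target membrane and fuse them with it. They are SNAREs and their regulators, synaptotagmins and their relatives, the 8 subunits of the exocyst, and ANXA2. They were chosen by name, as the probes of a human microarray whose gene name is one of the 36 listed symbols and whose spot was not marked as poor. All 36 genes were found, through 42 probes of the 24456 usable gene probes. They make up 36 of the 17793 named genes that were detected on both arrays. The comparison set 1 array of irradiated cells, labelled 2 Gy x 4, against 1 array of untreated cells, labelled 0 Gy. Both were made from MDA-MB-231, an established human triple-negative breast cancer cell line, grown in 3D on Matrigel, a laminin-rich extracellular matrix (lrECM). The irradiated culture received 2 Gy of ionizing radiation (IR) on each of 4 days, and nothing else in the labels separates the cultures. Neither condition was repeated, so that no test was possible, and each ratio below, always 2 Gy x 4 over 0 Gy, compares these 2 arrays only.

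A vesicle fuses when an R-SNARE on its membrane zips together with Q-SNAREs on the target membrane into a 4-helix bundle. Sec1/Munc18 (SM) proteins clasp the assembling bundle, synaptotagmins make fusion respond to calcium, and the exocyst holds the vesicle at the plasma membrane beforehand. Lysosomes use the same machinery when they fuse with the plasma membrane and release their proteases, and the study behind these arrays followed that release in cancer cells that had survived IR. The question here is whether the transcripts of the fusion machinery differed between the irradiated and the untreated culture.

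Cy5-labelled RNA was hybridised to a 1-colour oligonucleotide chip (Toray 3D-Gene), so that each spot gives 1 brightness value, its median intensity. The median gene probe stood at 51.9 on the 2 Gy x 4 array and 57.9 on the 0 Gy array, and the median blank spot at 13.6 and 12.2. The detection limit of an array was the intensity that 95% of its blank spots did not exceed (16.0 on the 2 Gy x 4 array and 14.2 on the 0 Gy array), and it was passed by 22381 probes (91.5%) on the 2 Gy x 4 array and 22846 (93.4%) on the 0 Gy array. Intensities were background-corrected with an offset of 50 and brought to a common distribution, and the ratio of a gene was taken from these normalized signals. Because the 0 Gy array was brighter as a whole, a probe of middle or high brightness with equal raw intensities has a ratio above 1. Dim probes have ratios nearer to 1 than they would without the offset. Of the marker genes of mesenchymal and basal breast cells, 7 of 7 were detected on both arrays. VIM stood at 26732 on the 2 Gy x 4 array and 28208 on the 0 Gy array on the brightest of its 3 probes. SPARC, at 21.8 and 26.1, was not far above the detection limits. Among 7 luminal and epithelial markers, ESR1 (13.3 and 13.4) and PGR (15.03 and 14.69) were not detected on both arrays. The other 5 were, including CDH1 (154.7 and 179.3) and the bright KRT19 (1778 and 2248). Of 6 markers of other cell types, the leukocyte gene PTPRC was not detected on both arrays, CD68 had no probe, and PECAM1, CDH5, DCN and LUM were detected.

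The 42 exocytosis probes were detected on both arrays without exception. Their intensities ran from 19.7 for SYT11 to 12367 for ANXA2 on the 2 Gy x 4 array and from 18.3 for SYT11 to 13424 for ANXA2 on the 0 Gy array. The probes of SNAP25, SYT1, SYT11 and SYTL4 lay under 2 times the detection limit on the 0 Gy array, and 24 of the 36 genes were brighter than the median gene.

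**Figure D1:**
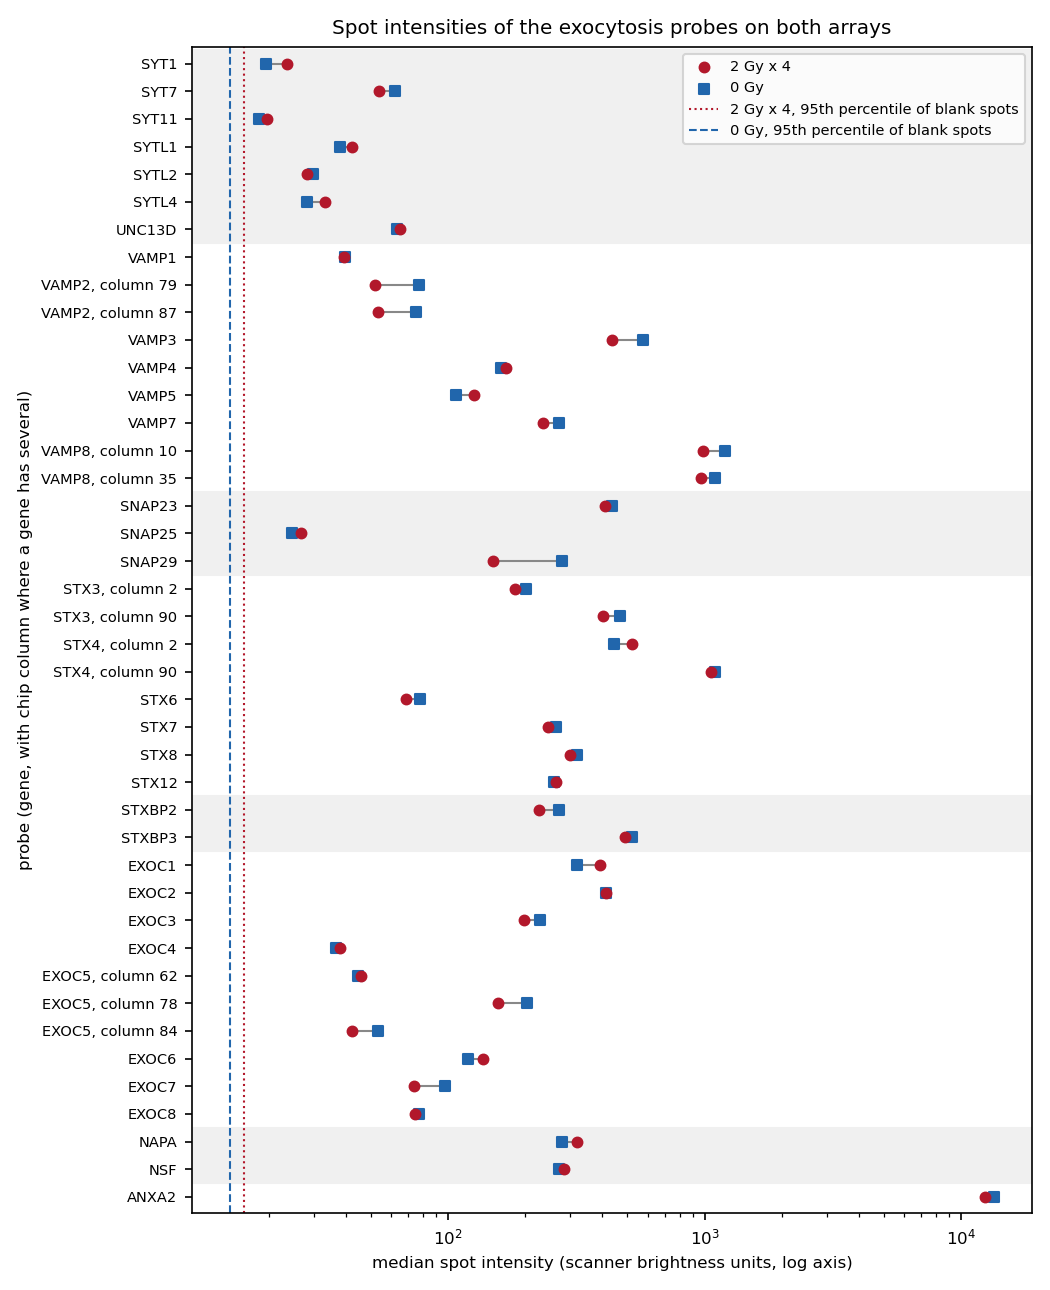
Median spot intensity (scanner brightness units, log axis) of each of the 42 exocytosis probes, one row per probe, on the 2 Gy x 4 array (circles) and the 0 Gy array (squares), with dotted and dashed lines at the detection limits (16.0 and 14.2). The points of a probe lie close together in nearly every row, and SNAP29 shows the widest gap, 149.2 on the 2 Gy x 4 array against 277.1 on the 0 Gy array.

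In the main values, the transcripts of the fusion machinery differed little between the irradiated and the untreated array. The offset draws the ratios of dim probes toward 1, so that the lack of a 1.5-fold call says little for them. SNAP29, a SNARE of the SNAP25 family, was the one gene of the 36 past 1.5-fold and was lower in the irradiated culture, at a ratio of 0.649. No gene of the list was 1.5-fold higher, and the highest ratio was 1.30 for the exocyst subunit EXOC1. Of all 17793 genes, 0.298% passed 1.5-fold upward and 1.01% downward, so that counts of 0 and 1 among 36 are close to what the array as a whole gave. In the list, 23 genes had ratios above 1 and 13 below 1, and 63.9% above 1 compares with 55.3% of all genes. The median log2 difference was 0.05 for the list and 0.01 for all genes. In bulk RNA of this kind, fewer cells of a type and less RNA per cell cannot be told apart.

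The deposited value table, in which the authors' own processing gives each probe a value, spread the ratios more widely. In it SYT1 was at least 1.5-fold higher (1.59) and SNAP29 at least 1.5-fold lower (0.593), beside 3.98% of 17789 genes higher and 6.51% lower. The median log2 difference was 0.12 for the list and 0.04 for all genes. A single gene of the list, STX3, lay on the other side of 1 than in the main values.

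**Figure D2:**
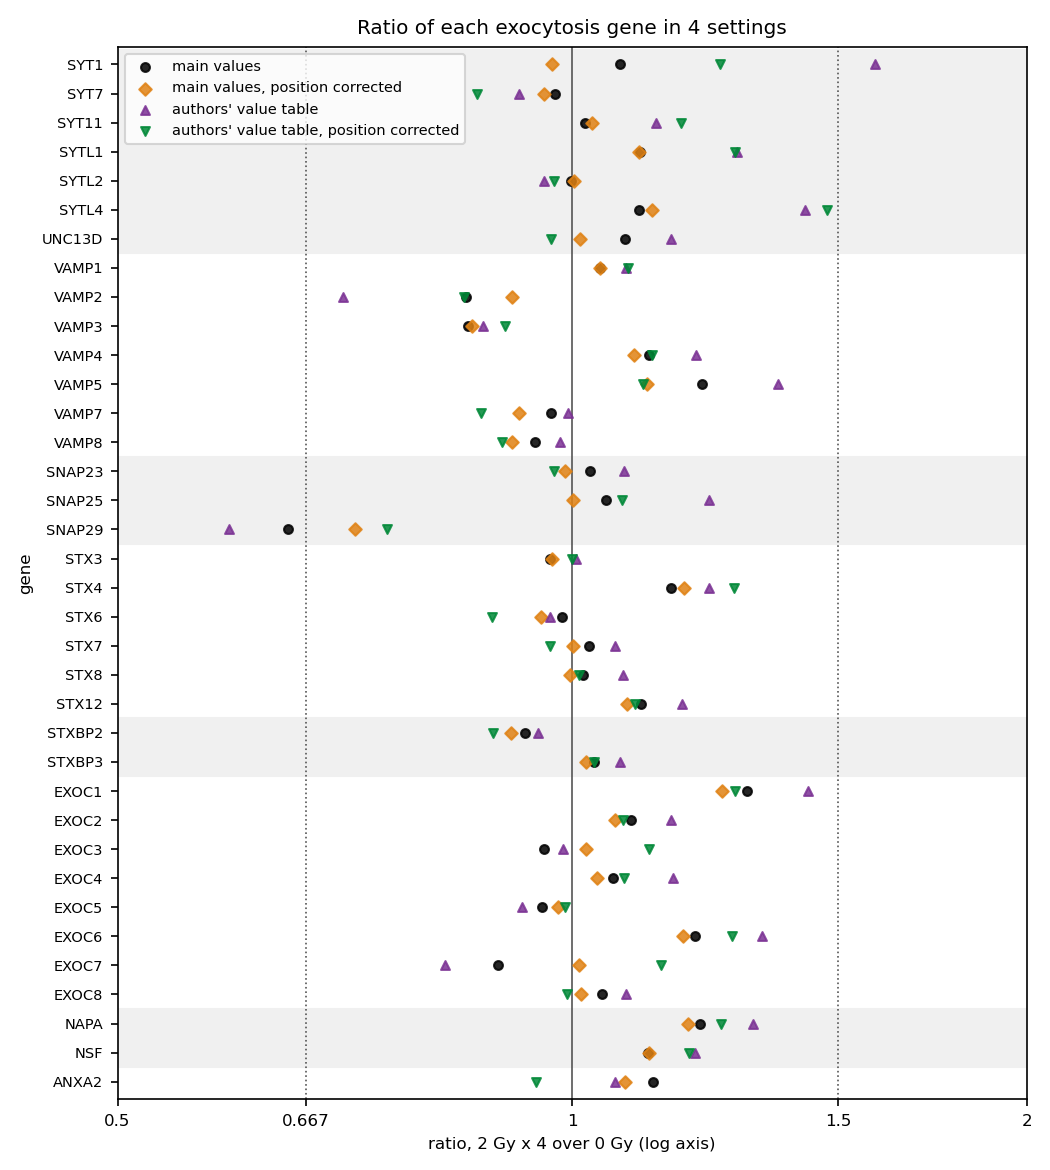
Ratio of 2 Gy x 4 over 0 Gy (log axis) for each of the 36 exocytosis genes, one row per gene, in the main values, the authors' value table, and each of these after a correction for position on the chip. Dotted lines mark 1.5-fold in either direction. SNAP29 stands left of the other genes in the main values (0.649), and SYT1 is past the right line in the authors' value table alone (1.59).

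SNAP29 differs from its relatives in having no membrane anchor of its own, and it is known for the fusion of autophagosomes with lysosomes, where it pairs with VAMP8. Its single probe read 149.2 on the 2 Gy x 4 array and 277.1 on the 0 Gy array. The normalized signals were 196.4 and 302.7, a log2 difference of -0.62. Over 14 ways of processing the arrays, the main one included, its ratio stayed below 1 and ran from 0.579 to 0.754. Ways that changed only which probes or genes were kept could not move this single probe from its main ratio. The probe lies in column 100 of 104 on the chip, in an area where the ratios of all probes were low. After the median log2 difference of neighbouring probes was taken off, the ratio of SNAP29 was 0.718 in the main values and 0.754 in the value table, and no gene of the list was past 1.5-fold in either direction. All-gene shares after this position correction were 0.208% higher and 0.438% lower in the main values, and 3.01% higher and 3.66% lower in the value table.

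The other members of the SNAP25 family were at ratios near 1. SNAP23, the widely expressed member that serves plasma membrane fusion in cells other than neurons, read 408.9 on the 2 Gy x 4 array and 435.3 on the 0 Gy array, a ratio of 1.03. SNAP25, its neuronal counterpart, read 26.8 and 24.6, a ratio of 1.05. Subtraction of the local background around each spot put SNAP23 at 0.641 and SNAP29 at 0.635. Across spots the local background correlated with the spot intensity (Spearman 0.928 on the 2 Gy x 4 array and 0.943 on the 0 Gy array, a description), and its part in these values was not tested.

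Promoter sequence of 3 genes is given for reference: SNAP29, the gene past 1.5-fold, EXOC1, the gene with the highest ratio, and VAMP2, which was lower on each of its probes. Each run is the 250 bases before an annotated transcription start, 5′ to 3′ on the strand of the gene, from RefSeq on GRCh38.p14: chr22:20858757-20859006 for SNAP29 (plus strand), chr4:55853398-55853647 for EXOC1 (plus strand) and chr17:8162949-8163198 for VAMP2 (minus strand). Capitals mark the GC box, GGGCGG or its reverse complement CCGCCC, the element bound by Sp1, a transcription factor that the study also examined.
SNAP29: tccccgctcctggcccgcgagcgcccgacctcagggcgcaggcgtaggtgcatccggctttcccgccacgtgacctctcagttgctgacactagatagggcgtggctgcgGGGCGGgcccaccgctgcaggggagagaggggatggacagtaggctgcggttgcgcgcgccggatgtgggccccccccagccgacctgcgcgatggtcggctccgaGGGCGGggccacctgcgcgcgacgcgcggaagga
EXOC1: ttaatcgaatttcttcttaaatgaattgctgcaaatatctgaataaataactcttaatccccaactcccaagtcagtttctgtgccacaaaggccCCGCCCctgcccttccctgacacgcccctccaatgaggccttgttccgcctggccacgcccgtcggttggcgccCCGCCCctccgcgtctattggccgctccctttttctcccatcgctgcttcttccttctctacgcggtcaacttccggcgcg
VAMP2: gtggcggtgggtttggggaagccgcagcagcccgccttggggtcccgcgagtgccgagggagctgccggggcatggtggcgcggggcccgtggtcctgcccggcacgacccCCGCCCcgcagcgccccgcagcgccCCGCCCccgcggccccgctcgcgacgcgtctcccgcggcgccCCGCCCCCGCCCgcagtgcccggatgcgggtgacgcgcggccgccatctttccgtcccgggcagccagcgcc
The SNAP29 and EXOC1 windows each hold 2 GC boxes and the VAMP2 window holds 4. These 3 genes were picked by their ratios, and a link between the box and the ratios was not tested. RefSeq windows were matched for 32 of the 36 genes, and 27 of their 43 windows (62.8%) hold at least 1 box. Among the 19534 windows of all genes detected on both arrays the share is 56.1%. A match describes these letters, and the arrays did not measure binding.

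The 7 VAMPs, the R-SNAREs that mark the vesicle, included 3 genes with ratios above 1 and 4 below 1, and their median ratio was 0.969. VAMP2, the synaptobrevin of regulated secretion, was measured by a pair of probes. The probe in column 79 read 51.7 on the 2 Gy x 4 array and 77.2 on the 0 Gy array, and the probe in column 87 read 53.6 and 75.2. The probe in column 87 bears a clone name and was assigned to VAMP2 through the platform annotation. The ratio of the gene was 0.851, and 0.705 in the value table. Both probes sit among the last 26 chip columns, and with the position correction the ratios of the gene were 0.913 and 0.848. VAMP3, or cellubrevin, the R-SNARE of recycling endosomes, read 436.6 on the 2 Gy x 4 array and 573.3 on the 0 Gy array. Its ratio was 0.853, from column 57, where the neighbouring probes had a ratio of 0.99.

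VAMP7 and VAMP8 are the R-SNAREs of lysosomes and late endosomes. VAMP7, known for the fusion of lysosomes with the plasma membrane, read 234.7 on the 2 Gy x 4 array and 270.0 on the 0 Gy array, a ratio of 0.969. The probes of VAMP8 read 965.5 and 989.1 on the 2 Gy x 4 array against 1099 and 1202 on the 0 Gy array, and the ratio of the gene was 0.945. VAMP2, VAMP7 and VAMP8 were below 1 under each way of processing the arrays, with ranges of 0.705 to 0.913, 0.870 to 0.994 and 0.855 to 0.982. None of these values is past 1.5-fold. The range of VAMP2, 0.705 at its lowest, comes nearest to it.

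The higher VAMPs were VAMP5 and VAMP4. VAMP5, first known from muscle, read 126.2 on the 2 Gy x 4 array and 107.5 on the 0 Gy array, a ratio of 1.22. The local trend at its place in column 6 was 1.09, and the position correction gave 1.12. VAMP4, a SNARE of the trans-Golgi network, had a ratio of 1.12, from readings of 168.0 and 160.4. VAMP1, a relative of VAMP2 best known from neurons, had a ratio of 1.04. Under local background subtraction VAMP5 lay at 0.971 and VAMP3 at 1.06, so that each was then on the other side of 1, whereas VAMP4 and VAMP1 were above 1 under each way of processing.

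The 6 syntaxins, Q-SNAREs that mostly sit on the target membrane, had a median ratio of 1.02, with 4 genes above 1 and 2 below 1. STX4, the plasma membrane syntaxin through which lysosomes and other vesicles fuse in many cell types, was the highest. Its probe in column 2 read 520.7 on the 2 Gy x 4 array and 443.5 on the 0 Gy array, a ratio of 1.27. Its probe in column 90 read 1059 and 1100, a ratio of 1.07. The mean over both was 1.16. These columns stand at opposite ends of the trend across the chip, and after the position correction the 2 probes gave 1.205 and 1.167. STX4 was above 1 under each way of processing, from 1.07 to 1.38.

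STX12, a syntaxin of recycling endosomes, read 264.5 on the 2 Gy x 4 array and 258.1 on the 0 Gy array, a ratio of 1.11, and it too was above 1 under each way of processing. The late endosomal syntaxins STX7 and STX8, partners of VAMP7 and VAMP8, were at 1.03 and 1.02. STX6, of the trans-Golgi network, read 68.3 on the 2 Gy x 4 array and 77.7 on the 0 Gy array, a ratio of 0.985. STX3, known from the apical membrane of epithelia, had probe ratios of 0.986 and 0.949, from readings of 181.7 and 402.8 on the 2 Gy x 4 array against 201.9 and 469.6 on the 0 Gy array. The median of the syntaxins lay just below 1 under loess scaling and under the position correction (log2 -0.0019 and -0.0012).

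Each SM protein of the list serves plasma membrane syntaxins. STXBP2, which acts in granule release by blood cells, read 226.4 on the 2 Gy x 4 array and 271.9 on the 0 Gy array, a ratio of 0.930. It was below 1 under each way of processing, from 0.797 to 0.949. STXBP3, a partner of STX4, read 488.7 and 523.7, a ratio of 1.03.

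Synaptotagmins bind calcium and membrane through paired C2 domains, and synaptotagmin-like proteins and UNC13D act before them, at tethering and priming. In this group of 7, 5 genes had ratios above 1 and 2 below 1, none was past 1.5-fold in the main values, and the median was 1.08. Under local background subtraction the median was 0.994. SYT7, the calcium sensor best known for lysosomal exocytosis, read 53.6 on the 2 Gy x 4 array and 62.4 on the 0 Gy array. Its ratio was 0.974, with 0.865 to 0.978 over the ways of processing. The probe carries a clone name in the scanner files and was named through the platform annotation. Another pair of probes, called SYT7 in the scanner files, is assigned to SYT17 by that annotation and was not counted here. Their ratios were 0.802 and 0.854, in columns 88 and 90.

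SYT1, the calcium sensor of synaptic vesicles, shows how far a dim probe depends on the background taken off and on the offset added. It read 23.6 on the 2 Gy x 4 array and 19.5 on the 0 Gy array, not far above the detection limits. The value table, after subtraction of the blank level, held 5.50 and 3.47, a ratio of 1.59, whereas the main values gave 1.08. With an offset of 0 the ratio was 1.498. After the position correction it was 0.970 in the main values and 1.254 in the value table.

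Among the synaptotagmin-like genes, whose proteins tether vesicles through a Rab GTPase, SYTL1 read 42.3 on the 2 Gy x 4 array and 38.0 on the 0 Gy array, a ratio of 1.11. SYTL4 read 33.2 and 28.2, a ratio of 1.11. In the value table these genes stood at 1.29 and 1.43. SYTL4 was above 1 under each way of processing, while SYTL1 was at 0.998 under local background subtraction. SYTL2, the remaining relative, read 28.2 on the 2 Gy x 4 array and 29.9 on the 0 Gy array, a ratio of 0.999. UNC13D, the priming factor of cytotoxic granules, was at 1.08, and SYT11, a synaptotagmin that does not bind calcium, at 1.02.

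The exocyst is an 8-subunit complex that holds vesicles at the plasma membrane, and in invasive cells it is known for delivering proteases to membrane protrusions. Of its subunits, 5 had ratios above 1 and 3 below 1, with a median of 1.06 and a range of 0.893 to 1.30. EXOC1 was the highest of the 36 genes. It read 391.8 on the 2 Gy x 4 array and 317.6 on the 0 Gy array, a ratio of 1.30, and 1.43 in the value table. After the position correction these ratios were 1.26 and 1.28. EXOC6, a subunit that binds Rab GTPases on the vesicle, read 137.3 on the 2 Gy x 4 array and 119.3 on the 0 Gy array, a ratio of 1.21. Local background subtraction placed EXOC1 at 0.979 and EXOC6 at 0.853.

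The 3 subunits below 1 had probes in column 78 or beyond, toward the far edge of the chip. EXOC7, which binds the lipids of the plasma membrane, read 73.9 on the 2 Gy x 4 array and 97.0 on the 0 Gy array, a ratio of 0.893. Its probe is in column 91, where the local trend was 0.884, and the position-corrected ratio was 1.01. EXOC5 was measured by 3 probes. In columns 84, 62 and 78 they read 42.3, 45.7 and 156.8 on the 2 Gy x 4 array, against 53.6, 44.8 and 202.8 on the 0 Gy array. Their ratios were 0.931, 1.07 and 0.876, with a gene mean of 0.955. The probe in column 62 bears a clone name and was assigned to EXOC5 through the platform annotation. EXOC3, with a probe in column 78, was at 0.958, and at 1.02 after the position correction. EXOC2, EXOC4 and EXOC8 had ratios of 1.09, 1.06 and 1.05. After the position correction 7 subunits lay above 1 and 1 below 1, with a median of 1.03, while local background subtraction gave a median of 0.982.

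NSF and NAPA undo SNARE bundles after fusion, NSF as the ATPase and NAPA as the adaptor that brings it to the bundle. NAPA read 317.7 on the 2 Gy x 4 array and 279.4 on the 0 Gy array, a ratio of 1.21. NSF read 284.0 and 271.9, a ratio of 1.12. Both probes lay in the middle or near part of the chip, in columns 48 and 12, and the position-corrected ratios were 1.19 and 1.12. NSF was above 1 under each way of processing, and NAPA was at 0.812 under local background subtraction. Their relatives NAPB and NAPG were at 1.10 and 1.12. ANXA2, a calcium-dependent membrane-binding protein that takes part in secretion and carries plasminogen activation at the cell surface, read 12367 on the 2 Gy x 4 array and 13424 on the 0 Gy array. Its ratio was 1.13 in the main values, 0.994 under median scaling, 1.07 in the value table and 0.946 in the value table with position correction, so that its direction was not the same under each way of processing.

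**Figure D3:**
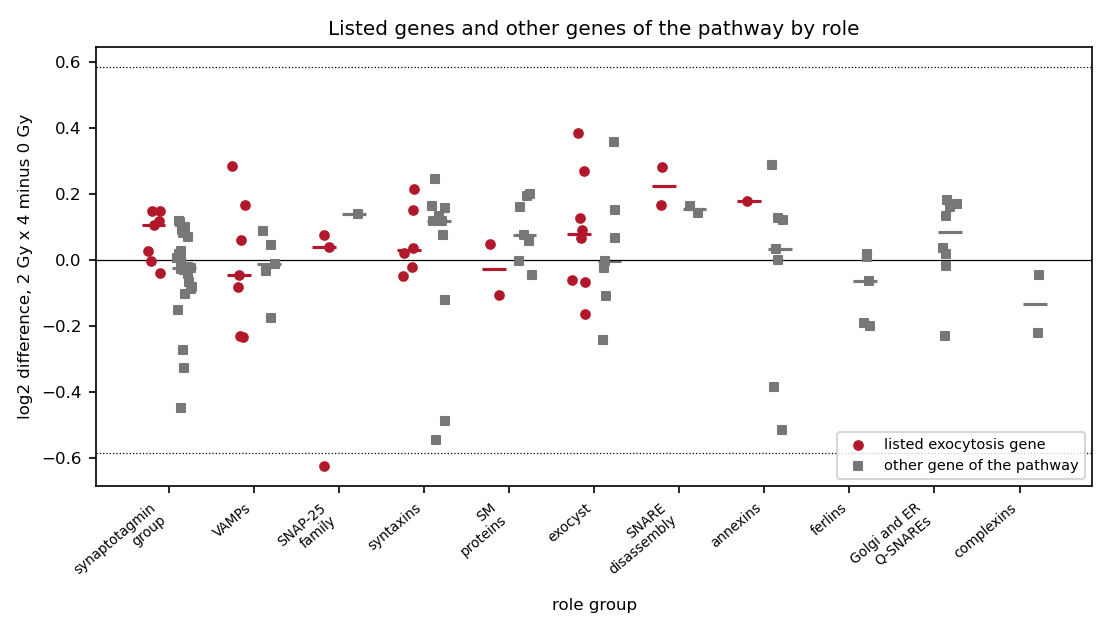
Log2 difference (2 Gy x 4 minus 0 Gy, main values) of each of the 36 listed genes (circles) and of 79 other detected genes of the pathway (squares), by role group, with a bar at the median of each set and dotted lines at 1.5-fold. Most points lie near 0, and SNAP29 (-0.62) is the single point past a dotted line.

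A position trend crossed the chip and touched these genes. The median log2 difference of all detected probes was 0.11 in column 1 and -0.22 in column 104. In the last 26 columns 4.09% of 5376 detected probes were at least 1.5-fold lower, against 0.222% of 16693 probes in the other columns. Of the 42 exocytosis probes 9 lay in the last 26 columns, 7 of them below 1, and their median ratio was 0.931 beside 0.936 for all probes there. Among all 5376 detected probes there, 4011 were below 1. The other 33 exocytosis probes included 10 below 1, with a median ratio of 1.05 beside 1.02 for all probes outside those columns. Of all 16693 probes outside, 5826 were below 1. The 8 genes with a probe in the last 26 columns had a median ratio of 0.961, with 2 above 1 and 6 below 1. The 28 genes without one had a median of 1.06, with 21 above 1 and 7 below 1. The 12899 genes of the array without one had a median of 1.03, with 8455 above 1 and 4428 below 1. The part of position in any single ratio was not tested.

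**Figure D4:**
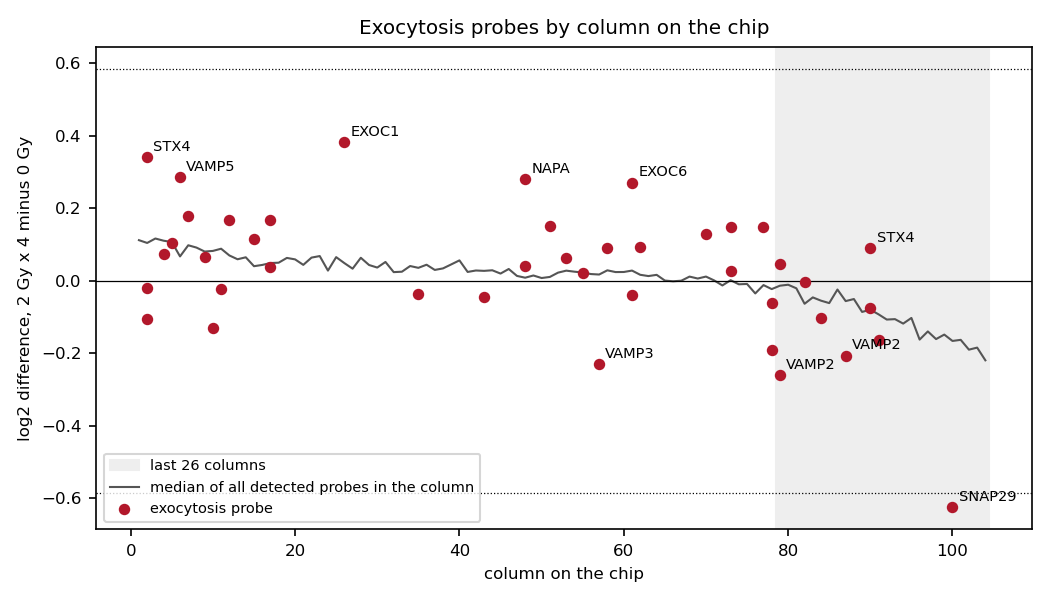
Log2 difference (2 Gy x 4 minus 0 Gy, main values) of the 42 exocytosis probes (points) against their column on the chip, with the median of all detected probes in each column as a line, the last 26 columns shaded, and dotted lines at 1.5-fold. The line runs from 0.11 in column 1 to -0.22 in column 104, and the SNAP29 probe in column 100 (-0.62) lies well below it.

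How far apart the probes of 1 gene stood gives a scale for these ratios in the absence of replicates, although it covers neither the cultures nor the arrays. For 2359 genes with 2 probes detected on both arrays, the ratios of the pair differed by a median of 1.09-fold, and the 95th percentile was 1.45-fold. Within the list, the probes differed by 1.22-fold for EXOC5, 1.19-fold for STX4, 1.07-fold for VAMP8 and 1.04-fold for each of STX3 and VAMP2. SNAP29 alone among the 36 genes lay farther from 1 than the 95th percentile, in the main values and after the position correction. In the value table, where that percentile was 2.09-fold, no gene of the list did. The share of all genes past these percentiles was not counted, so that this does not set SNAP29 apart from the array as a whole. The SD of the log2 differences was 0.18 over the 36 genes and 0.18 over all genes, so the list was as spread as the array in the main values. In the value table the list was less spread, at 0.28 against 0.38 for all genes, and at 0.21 against 0.32 with the position correction.

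A wider list of 92 SNAREs, synaptotagmins, annexins and their partners outside the 36 gave the same scale of differences. Of these, 89 were on the array and 79 were detected on both arrays, 42 with ratios above 1 and 37 below 1. None was past 1.5-fold, and the median ratio was 1.01. By the authors' values 5 of the 79 were at least 1.5-fold higher and 4 were lower by that much, beside 3.98% and 6.51% of all genes. The lowest ratio was that of STX16, a syntaxin of the trans-Golgi network, which read 231.5 on the 2 Gy x 4 array and 387.3 on the 0 Gy array, a ratio of 0.686. Its probe is in column 101, and the position-corrected ratio was 0.845. STX10, of the same compartment, was at 0.713, but its probes gave 0.544 in column 101 and 0.934 in column 65.

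Annexins, which bind membranes in the presence of calcium, appeared at both ends of the wider list. ANXA6 read 416.5 on the 2 Gy x 4 array and 672.9 on the 0 Gy array, a ratio of 0.700, and 0.713 after the position correction. ANXA5 had a ratio of 0.767, with 0.748 and 0.786 for its probes. ANXA1 was at 1.22, with 1.09 and 1.38 for its probes. The other genes with the widest differences were CADPS2, a priming factor of dense-core vesicles (0.733, and 0.913 after the position correction), ESYT1, a tether between endoplasmic reticulum and plasma membrane (0.797 and 0.839), and EXOC3L2, a relative of EXOC3 (1.28 and 1.16). In the value table CADPS2 (0.464) and EXOC3L2 (1.55) were past 1.5-fold, and ESYT1 (0.716) was not. With the position correction there, the values were 0.782 for CADPS2, 1.23 for EXOC3L2 and 0.811 for ESYT1. The 25 detected members of the synaptotagmin group in this list had a median ratio of 0.984, beside 1.08 for the 7 of the main list, and the 10 further syntaxins a median of 1.09, beside 1.02 for the 6.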

How the data were processed

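For each array the deposited scanner file holds spot intensities, linear and with no background taken off, and the authors added a value table of processed intensities. Set against the scanner files, that table holds the intensity less a trimmed mean of blank spots (their middle 90%, 13.7 on the 2 Gy x 4 array and 12.3 on the 0 Gy array), scaled to a median of 25. Its making is not given in the sources.

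Main values used limma 3.58.1 in R 4.3.3 on the spot medians, with normexp background correction (offset 50) and quantile normalization over 24456 gene probes. Python 3.11.15 with numpy 2.4.6, pandas 2.3.3 and matplotlib 3.10.9 did the rest. Platform annotation, updated through RefSeq (GRCh38.p14), named 21703 probes, the scanner files 965, and 1788 stayed unnamed. The files name no genome build, so probes have no coordinates. Log2 signals were averaged over those probes of a gene that passed the detection limit on either array. A difference was called at 1.5-fold, a size rule with no test. For the position correction, the median log2 difference of the probes within 11 rows and 8 columns was subtracted. The 13 alternatives were other scalings, backgrounds, filters and probe rules, a position correction, and the value table with and without it, and a 2-fold rule was also tried. The steps were tested on simulated data.

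The 36 genes, the wider list and the marker lists were chosen with earlier results of these data known. All 36 were named, those past 1.5-fold and the 2 highest and 2 lowest of each role group with intensities, and of the wider list the 8 with the largest differences.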

Additional observations from a re-analysis of the deposited data

How the results depend on the processing

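Of the 36 genes, 8 were above 1 and 6 below 1 under each of the 14 ways of processing that gave a value, and 22 changed side at least once, 10 of them under local background subtraction alone. That setting turned 17 genes, the value table with position correction 8, the position correction 6, median, 75th percentile and loess scaling 2 each, and the value table alone 1. These counts of kept and changed sides were not taken over all genes, so that they do not set the list apart from the array. The count of listed genes at least 1.5-fold higher was 0 in the main values and 1 in the authors' value table. The count at least 1.5-fold lower was 1 in the main values, 2 with local background subtracted (SNAP29 and SNAP23), and 0 with the position correction, with the value table and position correction together, and with a 2-fold rule. The median log2 difference of the list was 0.05 in the main values, 0.13 with offset 0, 0.093 with no background correction, 0.12 in the value table and -0.013 with local background subtracted. Of the wider list 0 genes were past 1.5-fold in the main values, 2 with no background correction, 7 with offset 0, 2 with local background subtracted, 9 in the value table and 4 in the value table with position correction. Over all genes 53 were higher and 179 lower in the main values, against 406 and 822 at an offset of 0, 142 and 429 with no background correction, 462 and 588 after local background was subtracted, 708 and 1158 in the value table and 536 and 651 in the value table with position correction, and the cause of these shifts was not tested. Scaling moved the median of all genes by at most 0.04. No paired analysis was possible because there is 1 array per condition, and no array could be left out. All ways of processing used the same 2 arrays. Those that changed only which probes or genes were kept repeat the main ratio of a gene with 1 probe. The number of arrays limits the precision, and dim probes, SYT1, SYT11, SYTL4 and SNAP25 among them, have signals near the blank spots.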
